A study of Mus musculus with 2 samples.

Results

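The 10 genes described here belong to the bone morphogenetic protein (BMP) and transforming growth factor beta (TGF-beta) pathways: the ligand gene Bmp6, the receptor genes Bmpr2, Acvrl1, Tgfbr2 and Eng, the inhibitory SMAD genes Smad6 and Smad7, and the target genes Id1, Id2 and Id3. They were chosen by symbol, as pathway genes linked to pulmonary hypertension, and all 10 were found among the 31053 genes of the matrices. Their levels were read in single lung cells of NG2tdT mice, which carry a tamoxifen-inducible Cre under the NG2 (Cspg4) promoter and the Ai14 allele, a tdTomato reporter that Cre switches on. All mice received tamoxifen (2 mg per 30 g body weight) and rested for 7 days. Mice of the Hypoxia group were then kept at 10% inspired oxygen for 21 days, and those of the Normoxia group are labelled as not treated. The labels give no ages, and the methods of the study describe its mice as a few months old. There was 1 library per group, and whether lungs of several mice were pooled is not stated. The spread between mice is therefore unknown, a test of the groups was not possible, and every ratio below compares 2 libraries. The 95% intervals given account for counting error and nothing else.

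Ligands of the TGF-beta family bind a pair of type I and type II receptors, which phosphorylate SMAD proteins that enter the nucleus and change transcription. In endothelial cells the BMP branch runs through the type II receptor encoded by Bmpr2, the type I receptor ALK1 encoded by Acvrl1, and the co-receptor endoglin encoded by Eng, and the ID genes are among its best known targets. Inherited loss of BMPR2 causes pulmonary arterial hypertension, and loss of ACVRL1 or ENG causes hereditary haemorrhagic telangiectasia, a disease of malformed vessels.

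The labels describe cells sorted for tdTomato, which would be pericytes and other NG2 lineage cells, but most of the cells were of other types. After filters on detected genes and mitochondrial RNA, 293 of 373 Normoxia barcodes and 453 of 613 Hypoxia barcodes remained, and their median depth was 3135 and 2818 UMIs (unique molecular identifiers, each 1 captured transcript). Cspg4 itself was detected in 1 Normoxia and 2 Hypoxia cells, and a list of 8 pericyte markers summed to 315 and 38.9 counts per 1e6 UMIs (CPM). The tdTomato transcript was not analysed here. Joint clustering gave 14 clusters, of which 5 were endothelial cell-like by their markers (39.9% of Normoxia and 48.1% of Hypoxia cells). The other classes were T or NK cell-like, B cell-like, fibroblast-like, macrophage or monocyte-like, innate lymphoid cell-like and neutrophil-like cells. Cluster 6, led by Hhip, Igfbp3 and Rgs5, held 6 fibroblast and 4 pericyte markers. It kept no name because its leading genes included pericyte (Rgs5, Kcnj8) and smooth muscle (Acta2, Tagln) markers but no fibroblast marker. The libraries shared 2 barcodes, 1 of them among retained cells.

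Promoter sequences are shown for the 3 genes that were lower together in the endothelial cell-like cells of the Hypoxia library (Eng, Bmp6 and Smad6) and for Id3, which was not. Each is the 250 bases before the RefSeq transcription start on GRCm38.p6, written 5′ to 3′ on the strand of the gene, with matches to the SMAD box CAGAC on either strand in capitals. Eng lies on chromosome 2 (chr2:32646345-32646594, plus strand), Bmp6 on chromosome 13 (chr13:38345466-38345715, plus strand), Smad6 on chromosome 9 (chr9:64022060-64022309, minus strand) and Id3 on chromosome 4 (chr4:136143572-136143821, plus strand).
Eng: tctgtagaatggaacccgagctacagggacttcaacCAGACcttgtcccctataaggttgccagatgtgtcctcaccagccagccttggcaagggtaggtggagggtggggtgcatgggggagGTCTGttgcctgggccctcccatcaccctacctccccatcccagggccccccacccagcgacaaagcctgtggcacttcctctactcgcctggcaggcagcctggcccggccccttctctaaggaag
Bmp6: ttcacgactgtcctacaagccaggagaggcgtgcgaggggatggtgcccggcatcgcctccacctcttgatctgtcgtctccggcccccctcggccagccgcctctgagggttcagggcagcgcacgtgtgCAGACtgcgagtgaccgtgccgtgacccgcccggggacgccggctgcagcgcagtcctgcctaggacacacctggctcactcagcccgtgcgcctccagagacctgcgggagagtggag
Smad6: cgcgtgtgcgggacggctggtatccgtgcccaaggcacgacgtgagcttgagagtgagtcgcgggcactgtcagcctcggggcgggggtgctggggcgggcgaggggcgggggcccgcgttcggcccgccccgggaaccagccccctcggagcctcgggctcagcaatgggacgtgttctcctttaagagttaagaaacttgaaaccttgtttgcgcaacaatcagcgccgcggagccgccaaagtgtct
Id3: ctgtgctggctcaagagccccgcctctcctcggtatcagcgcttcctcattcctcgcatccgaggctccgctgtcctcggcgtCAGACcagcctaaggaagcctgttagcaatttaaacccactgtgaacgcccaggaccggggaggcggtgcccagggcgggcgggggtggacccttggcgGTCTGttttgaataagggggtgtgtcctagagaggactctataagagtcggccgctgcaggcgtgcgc

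The promoters of Eng and Id3 held 2 matches to CAGAC each, that of Bmp6 held 1 and that of Smad6 held 0, so the genes that were lower together did not share this motif in these windows. CAGAC is short and was present in 42.2% of the 32851 promoter windows of the same length. The BMP-type SMAD element GGCGCC was in 9.59% of all windows and in 2 of the 7 windows available for these genes, those of Bmpr2 and Id2. The palindrome GTCTAGAC, present in 0.167% of windows, was in none of the 7. The E-box CACGTG, which also counts as a CANNTG match, was in 6.02% of windows and among the 7 only in that of Bmp6. CANNTG itself was in 66.2% of windows and in those of Eng, Bmp6 and Id2. Windows for Acvrl1, Smad7 and Id1 were not used here.

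Most transcripts of these genes came from endothelial cell-like cells. Bmp6, which encodes a secreted BMP, was nearly confined to them: 124 of its 125 Normoxia UMIs and 122 of its 123 Hypoxia UMIs lay in that class. No Bmp6 UMI was counted in fibroblast-like cells, which allows up to 13.5 CPM in the Normoxia and 30.8 CPM in the Hypoxia library. Smad6, an inhibitor that acts mainly on the BMP branch, had 93.7% of its Normoxia and 97.5% of its Hypoxia UMIs in endothelial cell-like cells. For the receptors Bmpr2, Acvrl1 and Eng and for Id1 this share was between 87.1% and 97.6% in each library.

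The other 4 genes were spread more widely. Tgfbr2, the type II receptor of TGF-beta, had 27.6% of its Normoxia UMIs in endothelial cell-like and 34.7% in fibroblast-like cells, against 55.3% and 13.8% in the Hypoxia library. Smad7, an inhibitor of both branches, had 51.9% and 67.6% of its UMIs in endothelial cell-like cells and a further 12.3% and 20.5% in T or NK cell-like cells. Id2, whose protein is needed for innate lymphoid cells to form, had its highest level in the innate lymphoid cell-like cluster, at 1438 CPM (95% interval 1148 to 1778) in 18 Normoxia cells and 2111 CPM (1414 to 3032) in 5 Hypoxia cells. In endothelial cell-like cells it stood at 128 and 88.1 CPM. Id3 was shared by endothelial cell-like cells (926 and 1275 CPM), fibroblast-like cells (392 and 833 CPM) and cluster 6 (620 and 1367 CPM).

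**Figure D1:**
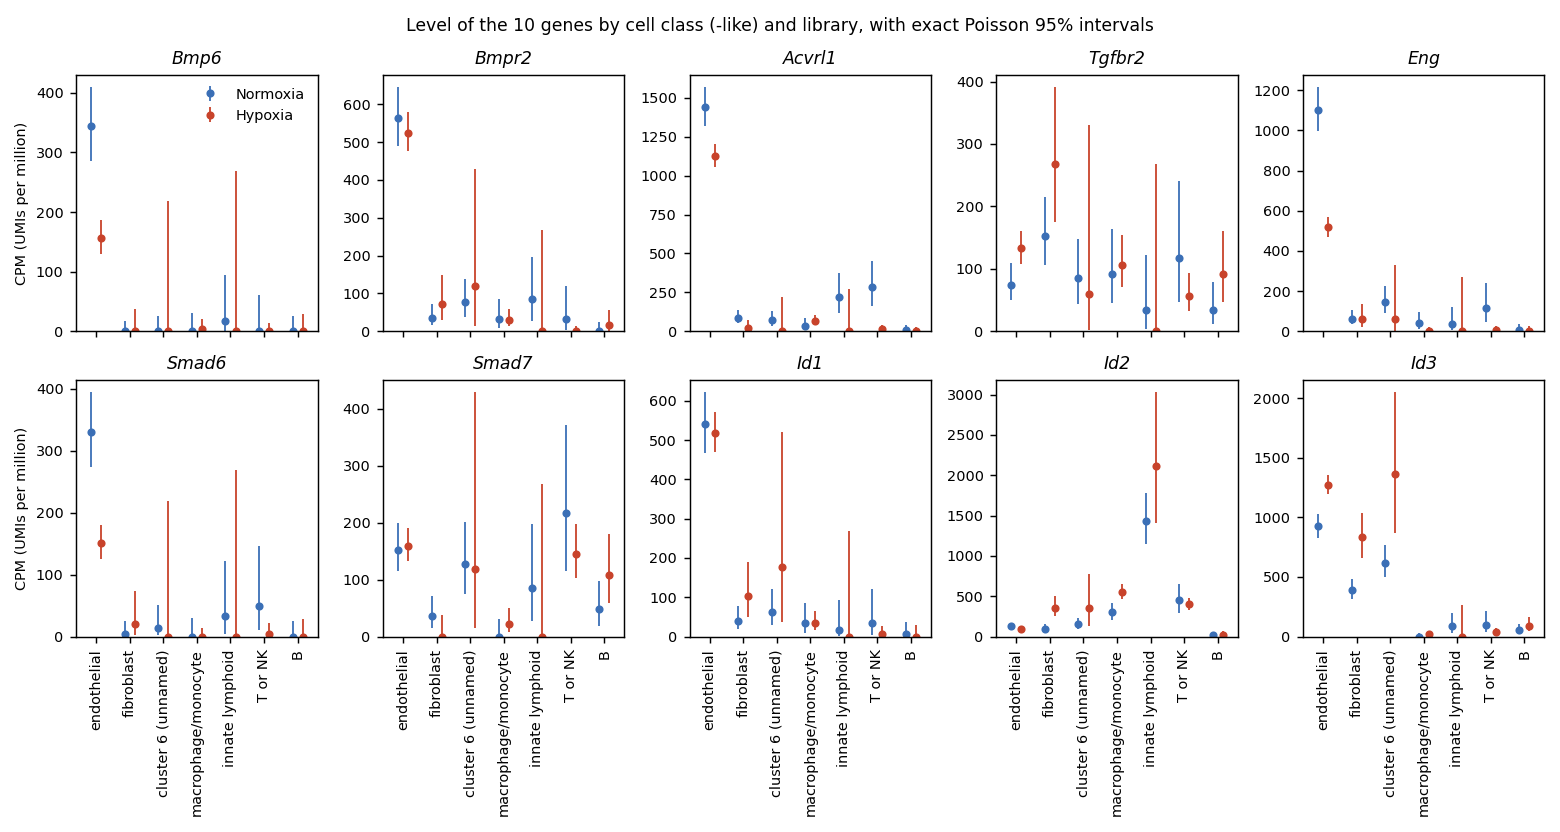
Level of each gene in CPM (vertical axis) in 7 classes of cells (horizontal axis) for the Normoxia (blue) and Hypoxia (red) library; points are UMIs summed over the cells of a class and bars are exact Poisson 95% intervals. Bmp6, Bmpr2, Acvrl1, Eng, Smad6 and Id1 stood highest in endothelial cell-like cells, Id2 in innate lymphoid cell-like cells, and Tgfbr2 and Smad7 showed no single class far above the rest.

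A few UMIs of the endothelial genes appeared in other classes, and 1 cell held many of them. Of 17 Acvrl1 UMIs in the 13 Normoxia T or NK cell-like cells, 16 lay in a single barcode, which also carried all 7 Eng, 6 Id3 and 3 Smad6 UMIs of that class. The same barcode held 37 UMIs of the endothelial marker Cldn5 beside 21 of the T cell receptor gene Trbc2. The T or NK cell-like values of these 4 genes in the Normoxia library therefore rest on 1 barcode with transcripts of both cell types.

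Over all retained cells most of the 10 genes differed by less than 1.5-fold between the libraries. Eng was at 403 CPM in the Normoxia and 261 CPM in the Hypoxia library, a ratio of 1.54-fold lower (log2 ratio −0.63, interval −0.82 to −0.43). Smad6, at 114 and 76.0 CPM, was at the edge of the 1.5-fold bound (log2 ratio −0.59, −0.96 to −0.22). Id3, at 475 and 711 CPM, stood just inside it on the other side (log2 ratio 0.58, 0.43 to 0.73). Inside the bound, Bmp6 was lower (−0.54, −0.91 to −0.17). Bmpr2 (0.37, 0.13 to 0.60), Id1 (0.45, 0.21 to 0.69) and Tgfbr2 (0.42, 0.06 to 0.79) were higher. The intervals of Acvrl1, Smad7 and Id2 spanned 0. By this bound 0 of the 10 genes were higher and 2 were lower in Hypoxia, against 13.6% of the 6691 genes with at least 50 UMIs that were higher and 11.2% that were lower. The share of endothelial cell-like cells differed between the libraries, so a level over all cells mixes the amount per cell with the number of such cells, and these cannot be told apart in it.

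Within endothelial cell-like cells (117 Normoxia and 218 Hypoxia cells, with a median of 2650 and 2835 UMIs), Bmp6, Eng and Smad6 were each more than 2-fold lower in the Hypoxia library. For the type II receptor Bmpr2, the target Id1 and Smad7 the interval of the ratio over the whole class spanned 0 on the log2 scale. Of the 10 genes, 1 was at least 1.5-fold higher (Tgfbr2) and 3 were at least 1.5-fold lower, against 11.1% and 9.16% of the 3863 genes with at least 50 UMIs in these cells. The median log2 ratio of the 10 genes was −0.23, beside 0.03 over all 3863.

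Bmp6, the ligand gene, had 124 UMIs in the Normoxia and 122 in the Hypoxia library, which is 344 and 156 CPM. The ratio was 2.21-fold lower in Hypoxia (log2 ratio −1.14, interval −1.51 to −0.77). Per cell, 55 of 117 Normoxia cells and 146 of 218 Hypoxia cells had no Bmp6 UMI.

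Among the receptors, Eng, the co-receptor that brings BMP ligands to ALK1, had 398 and 405 UMIs, or 1104 and 517 CPM. It was 2.13-fold lower in Hypoxia (log2 ratio −1.09, −1.30 to −0.89), and the median cell held 3 Eng UMIs in Normoxia and 1 in Hypoxia. Acvrl1, which encodes ALK1, was at 1442 and 1129 CPM (log2 ratio −0.35, −0.51 to −0.19), lower by less than 1.5-fold. Bmpr2 was at 563 and 525 CPM, and its interval spanned 0 (log2 ratio −0.10, −0.35 to 0.15). Over the whole class these genes thus differed by unlike amounts: the co-receptor was lower by more than Acvrl1, with intervals that did not overlap. Bmpr2 showed no clear difference over the whole class. It was lower in cluster 2, and without cluster 3 (described below) Eng, Acvrl1 and Bmpr2 were all lower (Bmpr2 log2 ratio −0.38, −0.63 to −0.12). Tgfbr2 was higher in Hypoxia, at 74.9 and 133 CPM (log2 ratio 0.83, 0.20 to 1.495), from only 27 and 104 UMIs. Of the Hypoxia UMIs, 23 came from the 6 lymphatic-like cells of cluster 13, and without that cluster the log2 ratio was 0.76.

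The 2 inhibitory SMAD genes differed from each other. Smad6 had 119 and 118 UMIs, at 330 and 151 CPM, and was 2.19-fold lower in Hypoxia (log2 ratio −1.13, −1.51 to −0.75). Smad7 was at 153 and 160 CPM (log2 ratio 0.07, −0.40 to 0.55). The intervals of the 2 ratios did not overlap; the difference itself was not tested.

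The ID genes encode proteins that bind helix-loop-helix transcription factors and keep them from DNA. Id1 was at 541 and 519 CPM (log2 ratio −0.06, −0.31 to 0.19). Id2 was at 128 and 88.1 CPM (log2 ratio −0.53, −1.09 to 0.04). Id3 was at 926 and 1275 CPM (log2 ratio 0.46, 0.28 to 0.64), higher in Hypoxia but by less than 1.5-fold. Of Normoxia cells 36 of 117 had 4 or more Id3 UMIs, and of Hypoxia cells 118 of 218, at unequal depth. With each cell thinned to 1000 UMIs, 57.1% (47.4 to 66.5%) of Normoxia cells held Id3. Of Hypoxia cells 69.0% (62.3 to 75.2%) did, and the intervals overlapped. Without cluster 3 these shares were 66.7% and 70.7%. A list of 18 immediate early and other stress genes, which tissue digestion is known to switch on, summed to 5905 CPM in Normoxia and 4290 CPM in Hypoxia endothelial cell-like cells, with 6 of 14 measured genes lower and 0 higher, and its part in the ID values was not tested.

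**Figure D2:**
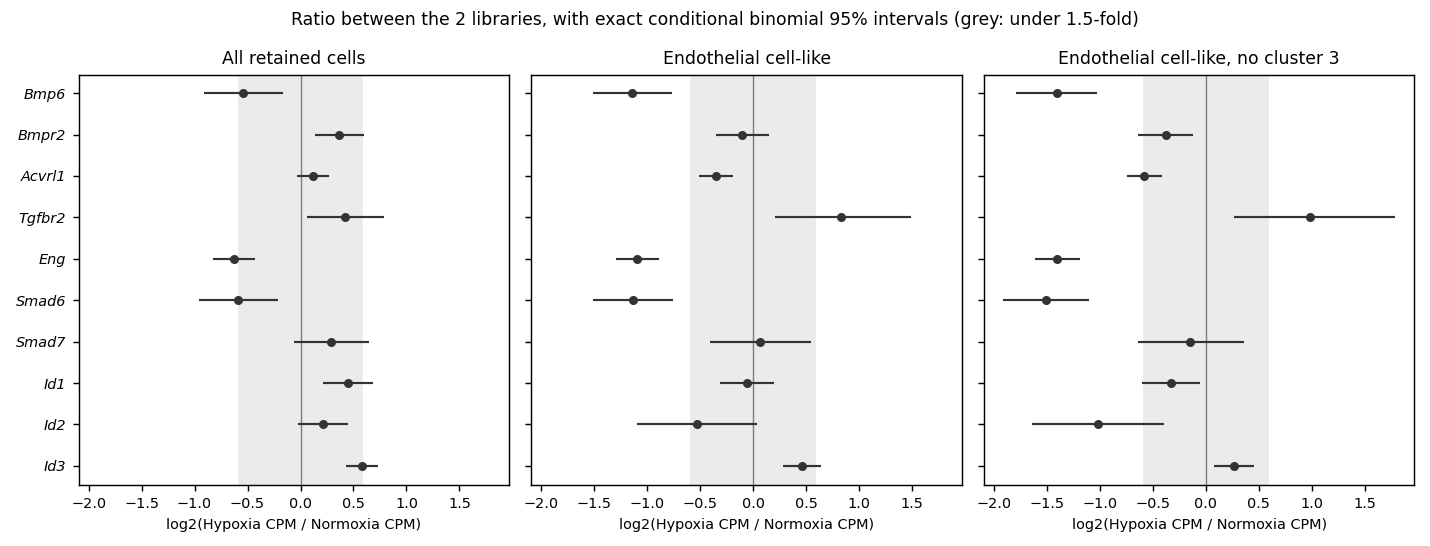
Log2 ratio of Hypoxia to Normoxia CPM (horizontal axis) for each gene (vertical axis) over all retained cells, over endothelial cell-like cells and over the same cells without cluster 3; bars are exact conditional binomial 95% intervals and the grey band marks ratios under 1.5-fold. In both endothelial panels Bmp6, Eng and Smad6 lie left of the band with their whole intervals, and Tgfbr2 lies to its right with an interval that reaches into it.

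The share of cells with a UMI was compared at equal depth, and its size depended on that depth. With every endothelial cell-like cell thinned to 1000 UMIs, which left out 5 Normoxia and 8 Hypoxia cells, 112 Normoxia cells gave a share positive for Eng of 59.8% (50.1 to 69.0%), and 210 Hypoxia cells gave 41.0% (34.2 to 47.9%). Smad6 was detected in 30.4% (22.0 to 39.8%) and 12.9% (8.6 to 18.2%). Bmp6 was detected in 27.7% (19.6 to 36.9%) and 18.1% (13.1 to 24.0%), and those intervals overlapped. At 500 UMIs the shares were 48.7% and 26.6% for Eng and 16.2% and 8.26% for Smad6, and at 2000 UMIs, which left 88 and 166 cells, they were 71.6% and 61.4% for Eng and 36.4% and 29.5% for Smad6. All were lower in Hypoxia, but the intervals overlapped for Eng at 2000 UMIs and for Smad6 at 500 and 2000 UMIs. Bmpr2 was detected in 34.2% and 19.7% of cells at 500 UMIs, with intervals apart, and in 61.4% and 62.0% at 2000 UMIs. Before thinning the shares were 80.3% and 73.9% for Eng, 45.3% and 32.6% for Smad6, and 53.0% and 33.0% for Bmp6. In B cell-like cells, which should lack these genes, none of the 3 was detected in 31 Normoxia and 53 Hypoxia cells at the same depth, which allows shares of up to 9.68% and 5.66%. The median depth of B cell-like cells before thinning was 4114 and 1862 UMIs.

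The endothelial cell-like class was not the same mixture in both libraries. Cluster 2, led by Slc26a10, Ntrk2 and Cdk19, held 23 Normoxia and 126 Hypoxia cells, whereas cluster 7, which was general capillary-like, held 51 and 41, and cluster 10, which was aerocyte-like, held 19 and 20. Bmp6, though kept out of the clustering, was among the 10 leading genes of cluster 7. The comparison was therefore repeated inside the clusters. Eng and Smad6 were lower in Hypoxia in clusters 2, 7 and 10 and Bmp6 in clusters 2 and 7, but not in cluster 3 (below 50 UMIs for Bmp6 and Smad6) or in the 10 lymphatic-like cells of cluster 13, where Eng had 5 and 12 UMIs and the other two had 0.

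Eng was at 1444 and 498 CPM in cluster 2, at 1606 and 593 CPM in cluster 7 and at 1330 and 751 CPM in cluster 10. The log2 ratios were −1.53 (−1.90 to −1.16), −1.44 (−1.83 to −1.06) and −0.82 (−1.33 to −0.33). In each of the 3 clusters the Eng intervals of the libraries were apart. Bmp6 was at 730 and 219 CPM in cluster 2 (log2 ratio −1.74, −2.27 to −1.19) and at 556 and 188 CPM in cluster 7 (−1.57, −2.29 to −0.89). Cluster 10 had 4 Bmp6 UMIs in Normoxia and 0 in Hypoxia, so this ligand was a gene of the first 2 clusters and was near its detection limit in aerocyte-like cells.

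Smad6 was at 404 and 120 CPM in cluster 2 (log2 ratio −1.76, −2.48 to −1.01), at 376 and 203 CPM in cluster 7 (−0.89, −1.63 to −0.18) and at 673 and 279 CPM in cluster 10 (−1.27, −2.08 to −0.50). In cluster 7 the share of cells with a Smad6 UMI at 1000 UMIs was 26.5% in Normoxia and 26.8% in Hypoxia, so there the lower CPM was not matched by fewer positive cells. Acvrl1 was lower by more than 1.5-fold in cluster 7 alone (2006 and 1035 CPM, log2 ratio −0.95, −1.26 to −0.65), while in clusters 2 and 10 its intervals spanned 0 (−0.55 to 0.09 and −0.59 to 0.05). That difference between clusters was not tested. Bmpr2 was at 823 and 577 CPM in cluster 2 (log2 ratio −0.51, −0.95 to −0.05), lower by less than 1.5-fold, and had log2 ratios of −0.30 in clusters 7 and 10 with intervals that spanned 0.

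Id3 differed by less than 1.5-fold in each of these clusters, at 1087 and 1500 CPM in cluster 2, 1262 and 1373 CPM in cluster 7 and 1145 and 1260 CPM in cluster 10. Only in cluster 2 did the interval of its log2 ratio leave out 0 (0.47, 0.11 to 0.84). Id1 had log2 ratios of 0.06, −0.52 and −0.05 in clusters 2, 7 and 10. Id2 was low in all 3, with 13, 15 and 9 Normoxia UMIs and 39, 7 and 0 Hypoxia UMIs. The count of members at least 1.5-fold lower was 4 of 10 in cluster 2 (12.2% of all genes measured there), 4 of the 8 that reached 50 UMIs in cluster 7 (14%) and 2 of 6 in cluster 10 (8.87%). Id2 in cluster 2, Bmp6 in cluster 7 and Smad6 in cluster 10 would not have reached 50 UMIs at their Hypoxia level in both libraries. The lower counts are therefore not read against these shares. No member measured in these clusters was at least 1.5-fold higher, against 15.9%, 12% and 11.8% of all genes.

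Cluster 3 went the other way. It held 20 Normoxia and 25 Hypoxia cells, and of its 649 measured genes 20.2% were at least 1.5-fold higher and 21.9% lower in Hypoxia. The 5 members that reached 50 UMIs did so mainly through the Hypoxia library, so that their count is not read against these shares. Each was higher in Hypoxia: Acvrl1 (140 and 477 CPM, log2 ratio 1.76, 0.89 to 2.75), Bmpr2 (130 and 411 CPM), Eng (173 and 411 CPM), Id1 (227 and 528 CPM) and Id3 (324 and 843 CPM), with at most 30 Normoxia UMIs for any of them. The genes that mark other cell types differed in the same cluster. The 11 endothelial markers summed to 3833 CPM in Normoxia and 10524 CPM in Hypoxia, the 8 fibroblast markers to 5464 and 227 CPM, and the alveolar type 2 markers to 19015 and 3535 CPM. The club cell gene Scgb1a1 made up 74008 and 106989 CPM, of which 5067 of 6854 and 14567 of 14588 UMIs lay in 1 barcode each. The part of these transcripts in the ratios of cluster 3 was not tested.

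Without cluster 3, which was left out after these values were seen (97 and 193 endothelial cell-like cells remained), Eng was at 1426 and 540 CPM (log2 ratio −1.40), Bmp6 at 455 and 172 CPM (−1.41) and Smad6 at 425 and 150 CPM (−1.50), each lower by more than with it. Acvrl1 came close to the bound (1892 and 1267 CPM, log2 ratio −0.58, −0.74 to −0.42), and Id2 passed it (157 and 77.3 CPM, −1.02, −1.64 to −0.39). Bmpr2 was then lower as well, by less than 1.5-fold (713 and 549 CPM, log2 ratio −0.38, −0.63 to −0.12). Id1 was lower (−0.33, −0.60 to −0.06) and Id3 was higher by a smaller amount (0.27, 0.08 to 0.46). By the 1.5-fold bound 1 gene was higher and 4 were lower, against 9.44% and 10.4% of 3251 genes. In these cells the fibroblast markers summed to 131 and 23.2 CPM, the alveolar type 2 markers to 78.4 and 94.3 CPM, and the 11 endothelial markers to 23175 and 18368 CPM.

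**Figure D3:**
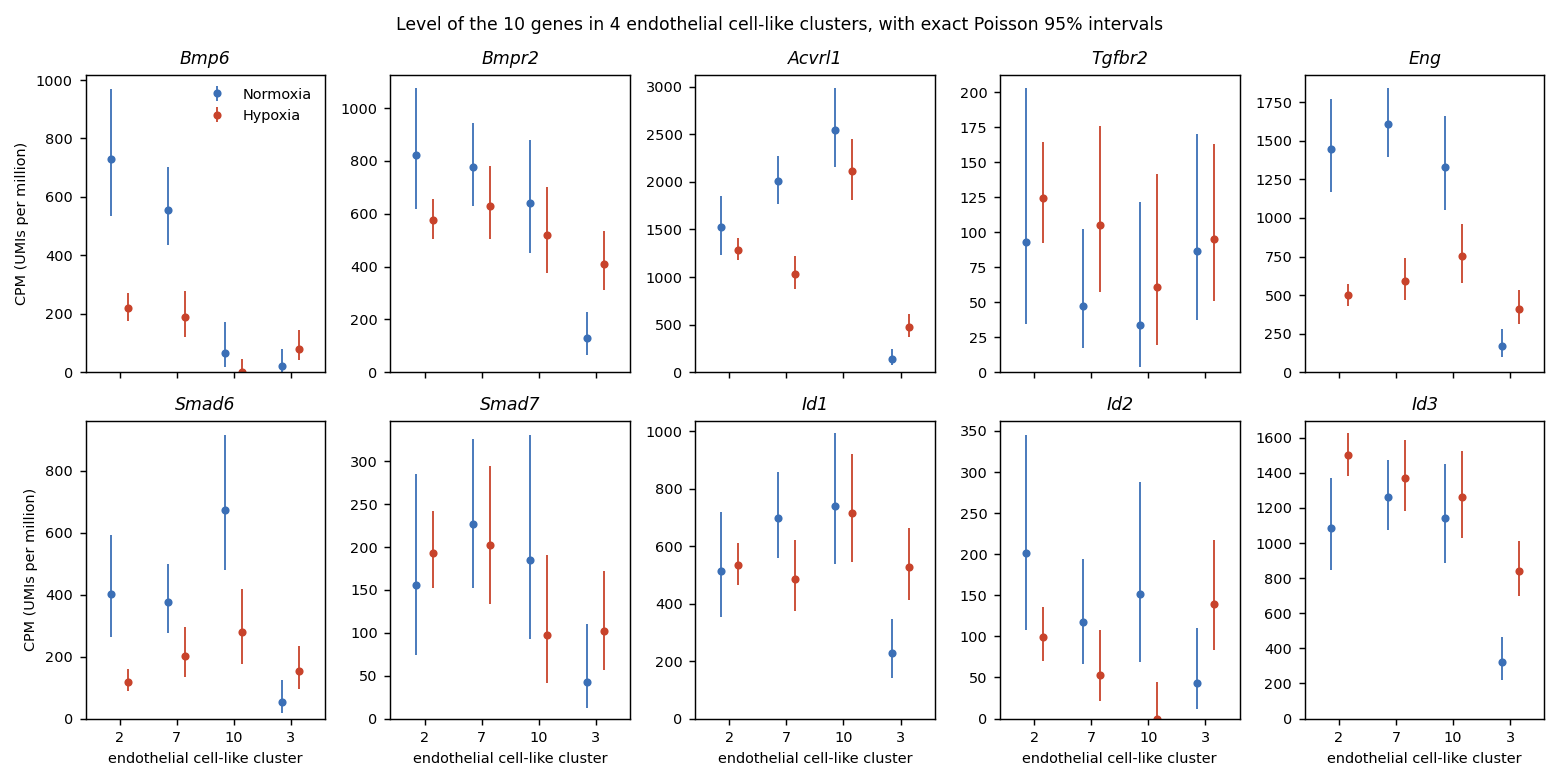
Level of each gene in CPM (vertical axis) in endothelial cell-like clusters 2, 7, 10 and 3 (horizontal axis) for the Normoxia (blue) and Hypoxia (red) library; bars are exact Poisson 95% intervals. Eng and Smad6 lie lower in Hypoxia in clusters 2, 7 and 10 and higher in cluster 3, and Id3 differs little outside cluster 3.

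At the level of single endothelial cell-like cells, detection of the genes was compared within each library at 1000 UMIs, without cluster 3. In Normoxia, Eng was found in 73.2% of 82 cells with an Acvrl1 UMI (62.2 to 82.4%), and in Hypoxia in 41.9% of 136 such cells (33.5 to 50.7%). Id3 was found in 62.2% of Id1-positive and 70.8% of Id1-negative Normoxia cells, and in 79.7% and 64.9% in Hypoxia, with overlapping intervals in each library. Smad6 was found in 32.3% of Bmp6-positive and 37.1% of Bmp6-negative Normoxia cells, and in 18.9% and 11.3% in Hypoxia, again with overlapping intervals. The share of cells with Eng was thus lower in Hypoxia among cells that carried Acvrl1. Such cells made up most of the set (82 of 93 Normoxia and 136 of 188 Hypoxia cells). Among cells without Acvrl1, Eng was found in 5 of 11 Normoxia cells (45.5%, 16.7 to 76.6%). In Hypoxia it was found in 20 of 52 such cells (38.5%, 25.3 to 53.0%), with overlapping intervals. With 10 Normoxia and 7 Hypoxia cells positive for both Bmp6 and Smad6, the counts were too few to tell whether these were linked within cells.

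In fibroblast-like cells (39 Normoxia and 21 Hypoxia cells) the genes with enough counts were higher in Hypoxia. Id3 had 87 and 81 UMIs, at 392 and 833 CPM (log2 ratio 1.09, 0.63 to 1.54). Id2 had 22 and 35 UMIs, at 99.2 and 360 CPM (log2 ratio 1.86, 1.05 to 2.70), with 9 positive cells in each library. Tgfbr2 was at 153 and 267 CPM (log2 ratio 0.80, 0.01 to 1.58), and 8 of its 26 Hypoxia UMIs came from 1 cell. These were the 3 genes that reached 50 UMIs there and all 3 were at least 1.5-fold higher, where 10.9% of the 909 genes measured in that class were higher and 18% lower. Id2 and Tgfbr2 would not have reached 50 UMIs at their Normoxia level in both libraries, so the count is not read against these shares. The other 7 genes had too few UMIs for a call.

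At 1000 UMIs, 9 of 38 Normoxia fibroblast-like cells held Id3 (23.7%, 11.4 to 40.2%), as did 12 of 16 Hypoxia cells (75.0%, 47.6 to 92.7%). Too shallow for this were 1 Normoxia and 5 Hypoxia cells. At 500 UMIs the shares were 5.13% and 23.8% and at 2000 UMIs 52.6% and 73.3%, in each case with overlapping intervals. Unthinned, these shares were 61.5% and 81.0%. Id1 was sparse, with 9 and 10 UMIs and 7 of the latter in 1 cell. Acvrl1, by contrast, had 19 UMIs in Normoxia and 2 in Hypoxia (log2 ratio −2.06, −5.21 to −0.01). The digestion-responsive list summed to 5646 CPM in Normoxia and 5109 CPM in Hypoxia fibroblast-like cells, and the 11 endothelial markers to 649 and 401 CPM.

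Cluster 6 had an Id3 level of 620 CPM in 45 Normoxia cells and 1367 CPM in 6 Hypoxia cells (log2 ratio 1.14, 0.41 to 1.82), and 10 of the 23 Hypoxia UMIs lay in 1 cell. Id2 in macrophage or monocyte-like cells was at 300 and 556 CPM (log2 ratio 0.89, 0.35 to 1.46). That class differed in make-up between the libraries. In cluster 9, led by Retnla and C1qa, Id2 had 11 and 32 UMIs (141 and 490 CPM), in cluster 12 it had 25 and 79 UMIs (598 and 691 CPM), and cluster 14 held 15 Hypoxia cells and 0 Normoxia cells. In T or NK cell-like cells Id2 was at 451 and 399 CPM and Smad7 at 217 and 145 CPM, with intervals of the log2 ratio that spanned 0 for both (−0.80 to 0.49 and −1.53 to 0.45).

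The wider pathway was read from a list of 76 genes that includes the 10. In endothelial cell-like cells 27 of them reached 50 UMIs, of which 6 (22.2%) were at least 1.5-fold higher and 5 (18.5%) were lower. Of all measured genes 11.1% were higher and 9.16% lower. Bmp2, Smad1 and Smad5 would not have reached 50 UMIs at their Normoxia level in both libraries, so the higher count is not read against that share. Thbs1 would not have reached 50 UMIs at its Hypoxia level in both libraries, so the lower count is not read against its share either. The median log2 ratio of the list was −0.06 over the whole class, beside 0.03 over all measured genes. Without cluster 3 the list median was −0.33, beside −0.03 over all measured genes. Among ligands, Bmp2 had 3 Normoxia and 50 Hypoxia UMIs (8.32 and 63.9 CPM, log2 ratio 2.94, 1.31 to 5.27), and it reached the minimum through the Hypoxia library. Among SMADs, the signal-carrying Smad1 was at 24.96 and 56.2 CPM (log2 ratio 1.17, 0.12 to 2.39) and Smad5 at 38.8 and 62.6 CPM (0.69, −0.19 to 1.66). Each rested on fewer than 20 Normoxia UMIs.

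Among regulators, Ski, a co-repressor of SMAD transcription, was at 63.8 and 124 CPM (log2 ratio 0.96, 0.29 to 1.68). Nbl1, a secreted BMP antagonist, was at 111 and 60.0 CPM (−0.89, −1.53 to −0.24). Thbs1, an activator of latent TGF-beta, was at 338 and 19.2 CPM (−4.14, −5.02 to −3.36), and 109 of its 122 Normoxia UMIs lay in 1 cell. Of the 6 measured targets 1 was at least 1.5-fold higher and 0 were lower. Tmem100, an endothelial target of ALK1 signalling, was at 2124 and 2115 CPM (−0.01, −0.13 to 0.12). Without cluster 3, 21 list genes reached 50 UMIs, with 5 higher (23.8%) and 6 lower (28.6%), against 9.44% and 10.4% of all measured genes. The higher count is again not read against that share. Smurf2 (log2 ratio −0.75), Skil (−0.77) and Id2 then joined the lower genes, Nbl1 turned to the other side (52.2 and 60.3 CPM, 0.21), Thbs1 and Smad5 no longer reached 50 UMIs, and Tmem100 stood at −0.22 (−0.35 to −0.09).

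Over all retained cells 46 of the 76 list genes reached 50 UMIs, with 3 higher (6.52%), 19 lower (41.3%) and a median log2 ratio of −0.18, against 13.6% and 11.2% of all measured genes. Among the lower ones were Htra1 (205 and 21.4 CPM) and Fstl1 (251 and 65.3 CPM). Fibroblast-like cells and cluster 6 together held 84 of 293 Normoxia and 27 of 453 Hypoxia cells.

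The genes whose level across cell classes was most like that of each member were found over 12 pools of class and library with at least 10 cells, by the correlation of log2(CPM + 10) with 6690 other genes. For Bmp6 they were Unc45b (r = 0.99) and Robo4 (0.97), for Smad6 Galnt18 and Enho (both 0.99), for Eng Fkbp1a and Ptprk (both 0.96), for Acvrl1 Kitl (0.96) and Arhgap29 (0.95), and for Bmpr2 Efnb1 (0.97) and Kank3 (0.96). For Id1 they were Cpd (0.94) and Sox13 (0.93), for Id2 Cdc42ep3 (0.88) and Usp3 (0.84), and for Id3 Sptbn1 (0.96) and Slc43a3 (0.95). For Tgfbr2 they were 2900097C17Rik (0.97) and Papola (0.90), and for Smad7 H2-T22 (0.94) and Synrg (0.92). The pools share 2 libraries, and most of these patterns are a high endothelial level against a low level elsewhere, so many genes are nearly as alike. With log2(CPM + 50) 13 of the 20 names came up again.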

How the data were processed

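Single-cell 3′ libraries were made from lung cells of NG2tdT mice, 1 per group. The deposited files are raw UMI counts per gene and barcode; per the file headers they were made with Cell Ranger 3.1.0 on mm10. A barcode was kept if it had between 200 and 6000 genes and no more than 5% of its UMIs from mitochondrial genes. Joint clustering used scanpy 1.11.5 (2000 variable genes without the 10 genes and the pathway list, 15 components, 15 neighbours, Leiden resolution 1). A cluster was named where at least 3 markers of a class were detected in 25% of its cells and at 2 times the median over clusters. Scrublet marked 1 Normoxia and 2 Hypoxia cells (0.341% and 0.442%), which were kept in the fit.

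For each class and library, a gene's UMIs were added up and scaled to the class total (CPM). Ratios carry exact conditional binomial 95% intervals, levels exact Poisson intervals and shares Clopper-Pearson intervals. A gene was called higher or lower at 1.5-fold with at least 50 UMIs, with no p-value. A count of 0 allows 3 counts. The code was tested on simulated counts for endothelial cell-like cells (3863 genes, 200 changed), where 96.3% of intervals held the true ratio. These counts were drawn from the Poisson model that the intervals assume, so the test checks the code and not the spread of real counts. Of the genes simulated without a change, 7.18% passed 1.5-fold in either direction. Alternatives changed the filters, clustering, totals, thinning and thresholds. Members and lists were chosen with earlier results of these data known. Of the genes outside the 10, those of the pathway list past the 1.5-fold bound (not all are reported here) and the 2 most alike in pattern to each gene were named; Tmem100, Smurf2, Skil, Htra1 and Fstl1 were chosen after their values were seen. Promoters were matched by symbol for 7 of the 10 genes.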

Additional observations from a re-analysis of the deposited data

Results flagged for a closer look

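The barcodes left out by the filters, which entered no comparison, held transcripts of the 10 genes. They summed to 1561 CPM (1440 to 1689) over 160 Hypoxia barcodes and 828 CPM (710 to 960) over 80 Normoxia barcodes, against 2720 and 2436 CPM in the retained cells.

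For Eng, Smad6 and Acvrl1 the ratio of Hypoxia to Normoxia passed 1.5-fold in opposite directions in different groups of cells, with intervals that left out 0. These differences were not tested. In cluster 3 the endothelial markers (3833 and 10524 CPM) and the fibroblast markers (5464 and 227 CPM) also differed between the libraries. Eng had a log2 ratio of 1.25 in cluster 3 and of −1.53, −1.44 and −0.82 in clusters 2, 7 and 10. Smad6 had −1.76, −0.89 and −1.27 in clusters 2, 7 and 10. Its 1.51 in cluster 3 came from 5 and 21 UMIs, below the minimum for a call. Acvrl1 had 1.76 in cluster 3 and −0.95 in cluster 7. Its −2.06 in fibroblast-like cells (19 and 2 UMIs) was below that minimum. So was its −4.22 in T or NK cell-like cells (17 and 4 UMIs), where 16 of 17 Normoxia UMIs lay in 1 barcode. Opposite signs with a lower value inside 1.5-fold were also seen for Bmpr2 (1.66 in cluster 3 and −0.51 in cluster 2) and Id1 (1.22 in cluster 3 and −0.52 in cluster 7). Bmp6 had 1.90 in cluster 3, from 2 and 11 UMIs and with an interval that spanned 0, and −1.74 in cluster 2.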

How the results depend on the processing

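No paired analysis was possible because each group had 1 library, and for the same reason leaving out a replicate could not be run. In endothelial cell-like cells the log2 ratio over all alternatives stayed between −1.40 and −0.94 for Eng, −1.94 and −1.07 for Bmp6, −1.50 and −0.79 for Smad6, and 0.62 and 1.29 for Tgfbr2. It ranged from −0.60 to −0.30 for Acvrl1, from −0.52 to −0.05 for Bmpr2, from −0.58 to 0.14 for Smad7, from −0.33 to 0.21 for Id1, from −1.63 to −0.45 for Id2 and from −0.00 to 0.55 for Id3. Of the ratios of single genes under the alternatives, 159 lay inside the interval of the reported value and 21 outside in these cells, and 80 inside and 10 outside over all cells. The median log2 ratio of all genes was 0.03 in these cells and 0.05 over all cells. The alternatives without cluster 2, 3 or 13 and with equal weight for clusters 2, 7 and 10 were chosen after seeing the data.

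Over all cells the count of members higher in Hypoxia went from 0 to 1 with totals without mitochondrial and ribosomal protein genes, without the cell with most UMIs of each gene, and with cells thinned to 1000 UMIs. The count lower went from 2 to 1 with those totals and without cells marked by Scrublet, and to 0 at 2-fold. In endothelial cell-like cells the count higher went from 1 to 0 at 2-fold, and the count lower from 3 to 5 with 30 components, when the class held 82 and 65 cells. With a minimum of 100 UMIs the pathway list had 0 higher and 11 lower genes over all cells and 2 higher in endothelial cell-like cells, and with 20 UMIs it had 8 lower there. Counts of these sizes limit what can be seen: a gene with under 50 UMIs was given no call.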
